A study of Homo sapiens with 6 samples.

Results

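The genes described encode core proteins of the pre-mRNA splicing machinery and 2 large families of RNA-binding proteins that steer it. They are the rows of a gene count table whose names start with HNRNP, SRSF, SF3A, SF3B or SNRP, together with U2AF1 and U2AF2. Names ending in P and digits, which mark pseudogenes, were left out. The rule found 60 genes among 58735 rows, after 178 of 238 matching names had been left out as pseudogenes. By role they are 2 U2AF genes, 3 SF3A genes, 6 SF3B genes, 4 protein genes of the U1 and U2 particles, 8 genes of the Sm core, 12 SRSF genes and 25 HNRNP genes.

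Splicing removes introns from nascent transcripts. The U1 particle pairs with the start of an intron, the U2AF dimer binds the pyrimidine tract and the AG at its end, and the U2 particle, which carries the SF3A and SF3B complexes, settles on the branch point. The spliceosomal small nuclear RNAs, apart from those of the U6 type, carry a ring of Sm proteins. SR proteins, encoded by the SRSF genes, mostly bind exons and favour their inclusion. The hnRNP proteins coat nascent RNA and often oppose splice sites.

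The cells were given as BE(2)-C, a human neuroblastoma line, and the comparison asked how a shortage of ACSS2, the nuclear and cytosolic enzyme that makes acetyl-CoA from acetate, altered their transcripts. In the shACSS2 group (3 libraries, genotype given as ACSS2 deficiency), a lentivirus delivered a short hairpin RNA against ACSS2. In the NS group (3 libraries, genotype given as wild type), it delivered a non-silencing hairpin, and both groups had been selected with puromycin and grown in DMEM with 10% calf serum. The titles write siACSS2 and the treatment text in 1 place writes shNgBR, so the name of the reagent is not settled by the labels. Whether a group's libraries are separate cultures or clones is not stated, and the p-values therefore measure a spread that may be technical.

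ACSS2 had 75, 84 and 110 counts in the shACSS2 libraries, against 366, 387 and 438 in the NS libraries. Scaled to library size as TMM-normalised CPM, its level was 5.32 ± 0.762 CPM in shACSS2 and 20.5 ± 0.324 CPM in NS (SD, n = 3 each). The log2 fold change was -1.94 with SE 0.145, and the p from edgeR's quasi-likelihood F test was 1.95e-06 after Benjamini-Hochberg adjustment. Exact permutation of the libraries (two-sided, log2 CPM) gave p = 0.1, the smallest value possible with 3 against 3. Library totals ran from 16617885 to 20831599 counts, with 22960 to 24903 rows detected per library. Mitochondrial genes took 0.692 to 0.775% of counts in the shACSS2 libraries and 1.25 to 2.20% in the NS libraries, and the part of this in the results was not tested. Of 14 markers of adrenergic neuroblastoma, 4 had no count in any library, PHOX2A, TFAP2B and TH among them. Only 3 averaged at least 5 CPM, namely GATA2, GATA3 and ISL1. MYCN, which is amplified in BE(2)-C, averaged 0.787 CPM in shACSS2 and 1.75 CPM in NS. IRS4, a gene of an embryonic kidney marker list, averaged 610 CPM in shACSS2 and 660 CPM in NS. Of the 8 genes of that kidney list, 6 averaged at least 5 CPM and 0 were without counts. Of the markers that define the labelled line, PHOX2A and TH were thus at 0 and MYCN was low in both groups. Replicate 1 of shACSS2 stood apart: the deviation of a gene in it from its group mean was lower at higher GC content (Spearman's rho -0.621 across genes), against rho values of 0.487 and 0.399 in the other shACSS2 libraries. The NS libraries were uneven as well. There the deviation had a rho with exon length of -0.216 in NS replicate 2 and 0.171 in NS replicate 3. Genes are not independent replicates, and these rho values are a description.

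Few of the splicing genes passed the test with all libraries. Of the 55 members that could be tested, 4 rose, 1 fell and 50 missed the threshold, so 9.09% of the members tested were called. Over all 16210 genes tested, 17.1% were called, with 7.48% higher and 9.64% lower in shACSS2. The median log2 fold change was 0.06 over the members and 0.00 over all genes, and the median of its absolute value was 0.16 and 0.23 in the same order. The CPM values of the 2 groups did not overlap for 18 members, 12 of them higher and 6 lower in shACSS2. That is 32.7% of the members, against 36.3% of all genes tested. At an unadjusted p under 0.05 there were 17 of the 55 members, against 5306 of the 16210 genes. Dropping shACSS2 replicate 1 left 13 members past the threshold (23.6%), dropping replicate 2 of that group left 3 (5.45%) and dropping its replicate 3 left 2 (3.64%). Dropping NS replicate 2 left 10 (18.2%), and dropping either of the other NS libraries left 1 (1.82%). All genes called ran from 6.15% to 23.5% over these fits. In bulk RNA, fewer cells of a type and less RNA per cell cannot be told apart. The members together held 1.96 ± 0.0311% of all counts in shACSS2 and 2.03 ± 0.0565% in NS (SD, n = 3 each).

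**Figure D1:**
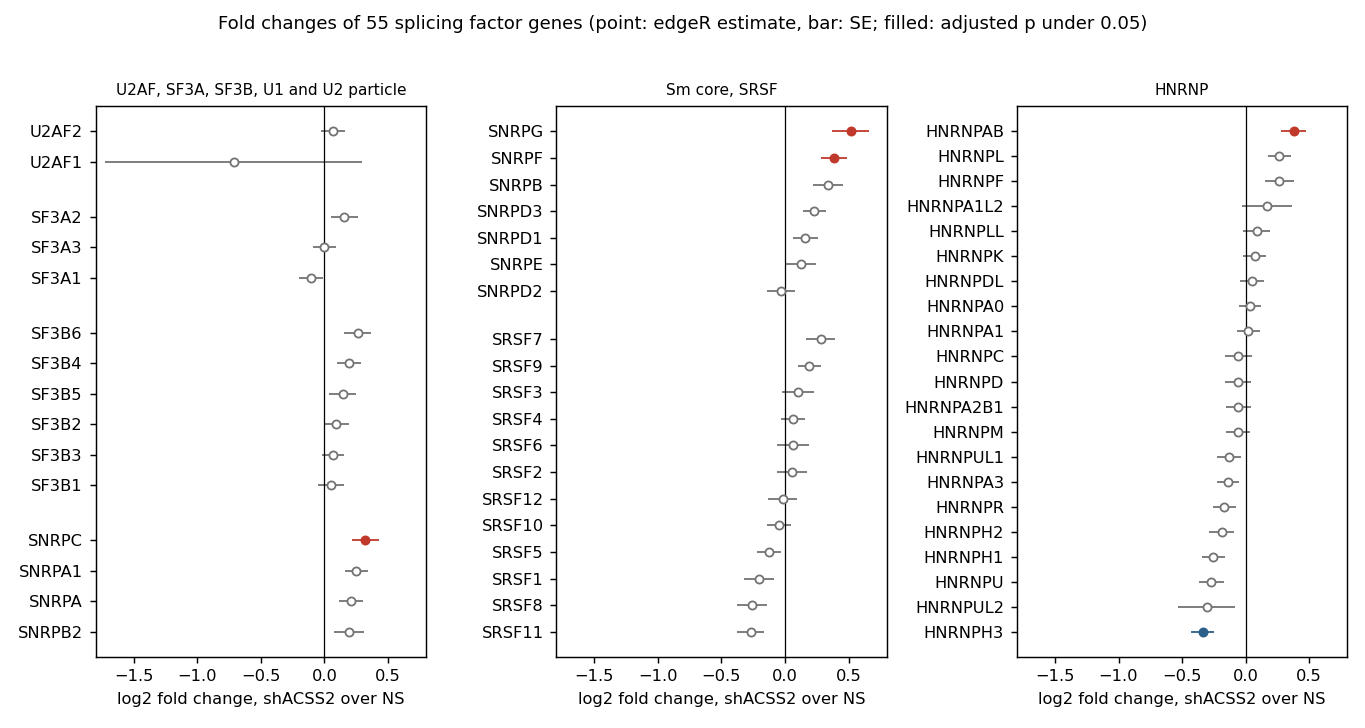
Log2 fold change of shACSS2 over NS for the 55 members tested, by family, with the edgeR estimate as a point and its standard error as a bar. Filled points are the 4 genes that rose (red) and the 1 that fell (blue) at an adjusted p of 0.05, and U2AF1 has by far the widest bar.

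The genes past the test were those of 3 snRNP proteins and 2 hnRNP proteins. SNRPG, the smallest protein of the Sm ring, had 243, 249 and 186 CPM in the shACSS2 libraries, against 175, 182 and 118 CPM in the NS libraries. Its lowest shACSS2 library lay just above its highest NS library, and replicate 3 was the lowest of each group. SNRPG rose by 0.52 on the log2 scale (SE 0.146, edgeR adjusted p = 0.0248), with a mean 42.9% higher in shACSS2.

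SNRPF, another Sm ring protein, had 125, 112 and 112 CPM in the shACSS2 libraries and 89.5, 95.9 and 81.4 CPM in the NS libraries. The groups were well apart, and the rise was 0.39 on the log2 scale (SE 0.099, edgeR adjusted p = 0.0152). SNRPC, the U1 protein that helps U1 hold the 5′ splice site, had 246, 247 and 219 CPM in shACSS2, against 190.2, 213 and 167 CPM in NS. Replicate 3 of shACSS2 was close to replicate 2 of NS, and the gene rose by 0.32 (SE 0.104, edgeR adjusted p = 0.0444).

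HNRNPAB, an hnRNP protein of the A/B type, had 409, 397 and 409 CPM in the shACSS2 libraries and 334, 329 and 273 CPM in the NS libraries. The shACSS2 libraries were nearly equal, and the rise was 0.38 (SE 0.098, edgeR adjusted p = 0.0161). HNRNPH3, a member of the hnRNP H/F group that binds runs of G, was the member that fell. It had 186, 180.3 and 179.5 CPM in the shACSS2 libraries, against 245, 229 and 215 CPM in the NS libraries, without overlap. Its log2 fold change was -0.34 (SE 0.091, edgeR adjusted p = 0.0195), a mean 20.9% lower in shACSS2.

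**Figure D2:**
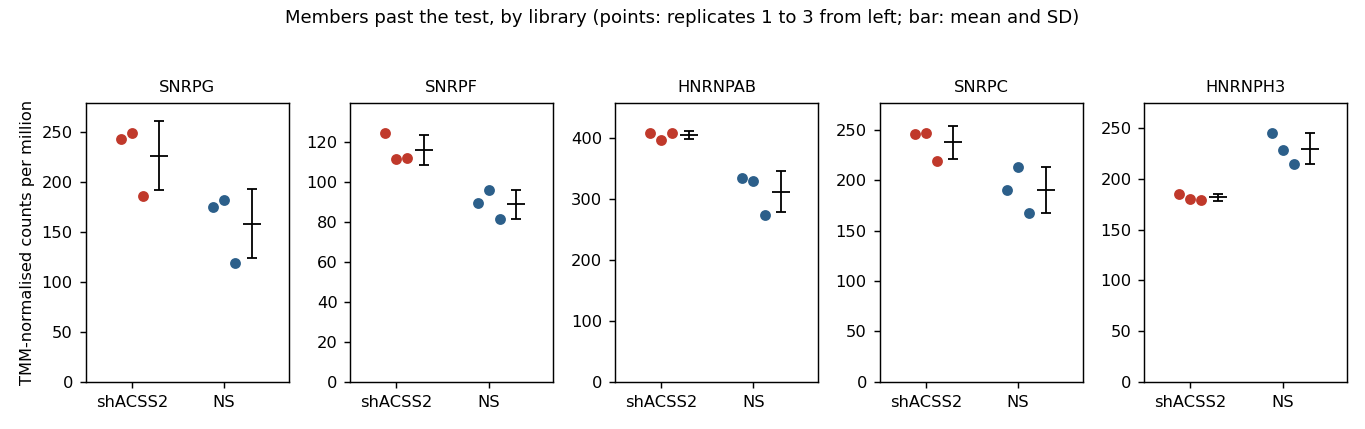
TMM-normalised CPM of the 5 members past the test in each library, shACSS2 on the left and NS on the right of each panel, with the mean and SD beside the points. In each panel the groups do not overlap, and the distance between them is smallest for SNRPG and SNRPC.

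In the GENCODE annotation (GRCh38) the 5 genes span chr2:70281362-70293771 on the minus strand (SNRPG, ENSG00000143977) and, on the plus strand, chr12:95858928-95903828 (SNRPF, ENSG00000139343), chr6:34757406-34773794 (SNRPC, ENSG00000124562), chr5:178204507-178211163 (HNRNPAB, ENSG00000197451) and chr10:68331174-68343191 (HNRNPH3, ENSG00000096746).

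Each of these 5 calls depended on single libraries. Without NS replicate 3, SNRPG (0.34, edgeR adjusted p = 0.127), SNRPF (0.32, adjusted p = 0.0958), SNRPC (0.23, adjusted p = 0.215) and HNRNPAB (0.29, adjusted p = 0.104) missed the threshold. Without NS replicate 1 the same held for SNRPG (0.59, adjusted p = 0.0523), SNRPF (0.39, adjusted p = 0.0816), SNRPC (0.32, adjusted p = 0.156) and HNRNPH3 (-0.29, adjusted p = 0.133). SNRPG also lost its call without shACSS2 replicate 1 (0.46, adjusted p = 0.294) or 2 (0.44, adjusted p = 0.0728). SNRPC lost it without shACSS2 replicate 2 (0.30, adjusted p = 0.120) or 3 (0.38, adjusted p = 0.0513). HNRNPH3 did so without shACSS2 replicate 2 (-0.33, adjusted p = 0.0646) or 3 (-0.33, adjusted p = 0.0738), and HNRNPAB without replicate 3 (0.37, adjusted p = 0.0517). With library totals as the scaling SNRPC was also lost (0.25, adjusted p = 0.0851), and at an adjusted p of 0.01 all 5 were. Leaving a library out also lowers the number of samples, and the direction of all 5 stayed as it was in each of these fits.

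The promoter windows listed for these 5 genes are shown because they are the members past the test. Each run is 300 bases of RefSeq sequence (GRCh38.p14), 250 before and 50 after an annotated start. Capitals mark CACGTG (an E-box), CCGGAAG (an ETS core) or CCAAT, on either strand. They lie at chr2:70293409-70293708 (minus strand, SNRPG), chr12:95858702-95859001 (plus, SNRPF), chr6:34757255-34757554 (plus, SNRPC), chr5:178204283-178204582 (plus, HNRNPAB) and chr10:68331443-68331742 (plus, HNRNPH3). Of several starts listed, the most upstream was taken for SNRPG and HNRNPH3. It lies 313 bases inside the GENCODE gene for SNRPG and 519 bases inside it for HNRNPH3. Both of these printed runs thus lie wholly within the gene, and neither shows the sequence before its GENCODE start.
SNRPG: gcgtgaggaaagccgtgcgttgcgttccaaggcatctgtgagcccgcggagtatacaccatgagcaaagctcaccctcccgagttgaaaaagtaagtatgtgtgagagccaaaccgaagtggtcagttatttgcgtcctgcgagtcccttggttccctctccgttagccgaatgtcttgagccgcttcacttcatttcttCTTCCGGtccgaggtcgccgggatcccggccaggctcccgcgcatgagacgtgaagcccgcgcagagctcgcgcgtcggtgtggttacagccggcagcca
SNRPF: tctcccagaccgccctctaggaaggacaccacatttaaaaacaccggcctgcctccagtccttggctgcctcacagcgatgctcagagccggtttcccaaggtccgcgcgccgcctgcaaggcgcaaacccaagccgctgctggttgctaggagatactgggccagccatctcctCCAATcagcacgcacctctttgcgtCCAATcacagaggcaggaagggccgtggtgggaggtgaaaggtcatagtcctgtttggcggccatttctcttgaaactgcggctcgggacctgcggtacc
SNRPC: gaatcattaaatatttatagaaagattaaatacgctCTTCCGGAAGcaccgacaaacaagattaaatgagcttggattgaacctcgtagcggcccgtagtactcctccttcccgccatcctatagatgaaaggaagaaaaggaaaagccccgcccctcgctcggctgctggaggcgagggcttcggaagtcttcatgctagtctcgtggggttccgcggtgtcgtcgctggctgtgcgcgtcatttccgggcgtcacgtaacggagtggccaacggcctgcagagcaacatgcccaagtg
HNRNPAB: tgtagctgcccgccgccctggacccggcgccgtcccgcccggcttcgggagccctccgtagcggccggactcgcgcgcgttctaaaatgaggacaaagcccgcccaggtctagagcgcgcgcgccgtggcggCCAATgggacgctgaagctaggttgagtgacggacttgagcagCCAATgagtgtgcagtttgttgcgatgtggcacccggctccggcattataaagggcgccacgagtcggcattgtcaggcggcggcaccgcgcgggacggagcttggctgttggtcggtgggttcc
HNRNPH3: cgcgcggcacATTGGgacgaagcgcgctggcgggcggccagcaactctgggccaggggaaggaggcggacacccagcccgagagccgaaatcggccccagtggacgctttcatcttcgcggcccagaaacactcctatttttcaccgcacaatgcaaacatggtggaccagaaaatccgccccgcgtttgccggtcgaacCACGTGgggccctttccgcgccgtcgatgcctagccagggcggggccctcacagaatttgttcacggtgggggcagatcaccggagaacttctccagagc
SNRPF and HNRNPAB each held 2 CCAAT boxes and neither of the other 2 capitalised motifs. SNRPC held CCGGAAG on both strands in an overlapping pair and SNRPG held it once on the opposite strand. HNRNPH3 held an E-box and a CCAAT on the opposite strand. The matches of SNRPG and HNRNPH3 lie inside their genes, downstream of the GENCODE start. Over the families, 55 of the 60 members had at least 1 promoter in the RefSeq table, 78 in all, and a gene was counted once if any of its promoters held a motif. The family counts include windows that lie inside a gene. They also include HNRNPCL1, HNRNPCL2, HNRNPCL4 and SNRPN, which had no counts and were not tested. CCGGAAG was present in 6 of 8 SF3A and SF3B genes (75.0%) and in 7 of 11 snRNP protein genes (63.6%). Only 3 of 23 HNRNP genes (13.0%) and 2 of 11 SRSF genes (18.2%) held it, against 21.1% of 11161 genes tested that had a promoter. CCAAT was present in 19 of 23 HNRNP genes (82.6%), 5 of 11 snRNP protein genes (45.5%), 2 of 11 SRSF genes (18.2%) and 1 of 8 SF3A and SF3B genes (12.5%), against 42.9% of genes tested. CACGTG was present in 8 of 51 members tested (15.7%), 7 of them HNRNP genes, and in 12.6% of genes tested. GGGCGG, a GC box, was present in 68.6% of members tested and 77.4% of genes tested. A match to these letters is a description of the window and was not tested for binding.

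U2AF1 and U2AF2 encode the small and large subunits of the U2AF dimer. U2AF2, the abundant one of the pair, had 347, 401 and 371 CPM in the shACSS2 libraries and 365, 375 and 329 CPM in the NS libraries. These groups overlapped, and the log2 fold change was 0.07 (SE 0.095, edgeR adjusted p = 0.671). U2AF1 had 138, 154 and 58 counts in shACSS2, against 91, 57 and 563 counts in NS. NS replicate 3 alone was far above the other libraries, and the log2 fold change, -0.71 (SE 1.01, edgeR adjusted p = 0.692), had the largest error among the members. In GENCODE v29, 94.3% of its distinct 50-base exon sequences also occur in its near-identical copy U2AF1L5. That copy had 75, 73 and 78 counts in shACSS2, against 101, 196 and 74 counts in NS. The sum of both rows was 213, 227 and 136 counts in shACSS2, against 192, 253 and 637 in NS, so adding the copy did not remove the high value of NS replicate 3. Reads of such near-identical copies can be split or lost in counting, and the level of U2AF1 is uncertain in these counts.

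SF3A and SF3B hold the U2 particle on the branch point. None of their 9 members passed the test. SF3A1, the most abundant SF3A gene, had 204, 239.5 and 246 CPM in the shACSS2 libraries, against 252, 239.8 and 251 CPM in the NS libraries. The groups overlapped, and the log2 fold change was -0.11 (SE 0.097, edgeR adjusted p = 0.473). SF3A2 was at 0.16 and SF3A3 at -0.00. SF3B1, whose product grips the branch point adenosine, had 635, 497 and 508 CPM in shACSS2 and 507, 541 and 534 CPM in NS. Only shACSS2 replicate 1 was high, and the log2 fold change was 0.05 (SE 0.103, edgeR adjusted p = 0.771). All 6 SF3B genes had a log2 fold change above 0, between 0.05 and 0.26, with a median of 0.12, but with library totals SF3B1 (-0.02) and SF3B3 (-0.0036) were below 0. SF3B2 was at 0.09 and SF3B5 at 0.14. The largest was that of SF3B6, the small subunit next to the branch point, at 0.26 (SE 0.104, edgeR adjusted p = 0.0937). SF3B3 had 531, 528 and 536 CPM in shACSS2, against 495, 508 and 517 CPM in NS. It did not overlap between the groups, nor did SF3B4, but neither passed the test (edgeR adjusted p = 0.618 and 0.170 in that order).

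The 12 protein genes of the Sm core and of the U1 and U2 particles gave 3 of the 5 calls. Of the 11 tested, 3 rose (27.3%, against 7.48% of all genes called higher), none fell and 10 had a log2 fold change above 0, with a median of 0.23, against 0.00 over all 16210 genes. In 7 of the 11 the shACSS2 libraries were all above the NS libraries, namely SNRPA, SNRPA1, SNRPC, SNRPB, SNRPD3, SNRPF and SNRPG. The same held for 2846 of the 16210 genes, and in 36.3% the groups did not overlap in either direction. The number above 0 was 10 or 11 of 11 in each of the 18 alternatives, and the median ran from 0.16 to 0.28. The Sm core held 0.199 ± 0.00966% of counts in shACSS2 and 0.178 ± 0.0210% in NS (SD, n = 3 each).

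SNRPB, the Sm protein with the highest level per length after HNRNPA1 among the members, had 719, 673 and 691 CPM in the shACSS2 libraries, against 529.5, 661 and 458 CPM in the NS libraries. The groups did not overlap, yet NS replicate 2 was close to shACSS2. Its log2 fold change, 0.34 (SE 0.116, edgeR adjusted p = 0.0560), missed the threshold, and it was past it in 8 of the 18 alternatives. SNRPD3 stood at 0.23 (adjusted p = 0.0814), SNRPD1 at 0.16, SNRPE at 0.12 and SNRPD2 at -0.03, the only Sm gene below 0. In the U2 particle SNRPA1, the A′ protein, was at 0.25 (SE 0.092, edgeR adjusted p = 0.0703) and its partner SNRPB2, the B″ protein, at 0.19. SNRPA, the U1 A protein, was at 0.21 with 176, 201 and 204 CPM in shACSS2, against 167, 172 and 163 CPM in NS. SNRPN, a tissue-restricted copy of the B protein, had 0 counts in all 6 libraries, as had SNURF, which shares its transcript. Of the 3918 distinct 50-base sequences of SNRPN, 1010 (25.8%) occur in other genes, and reads matching several genes can be lost. Most of its sequences occur in no other gene, and the cause of the 0 counts was not tested.

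NS replicate 3 was the lowest of its group for SNRPG, SNRPF, SNRPC and SNRPB, and the Sm core genes lay at a median of -0.17 log2 units from their group mean in it. In NS replicate 2 that median was 0.14. Without NS replicate 3 the median log2 fold change of the 11 snRNP genes was 0.20, with 10 of 11 above 0.

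**Figure D3:**
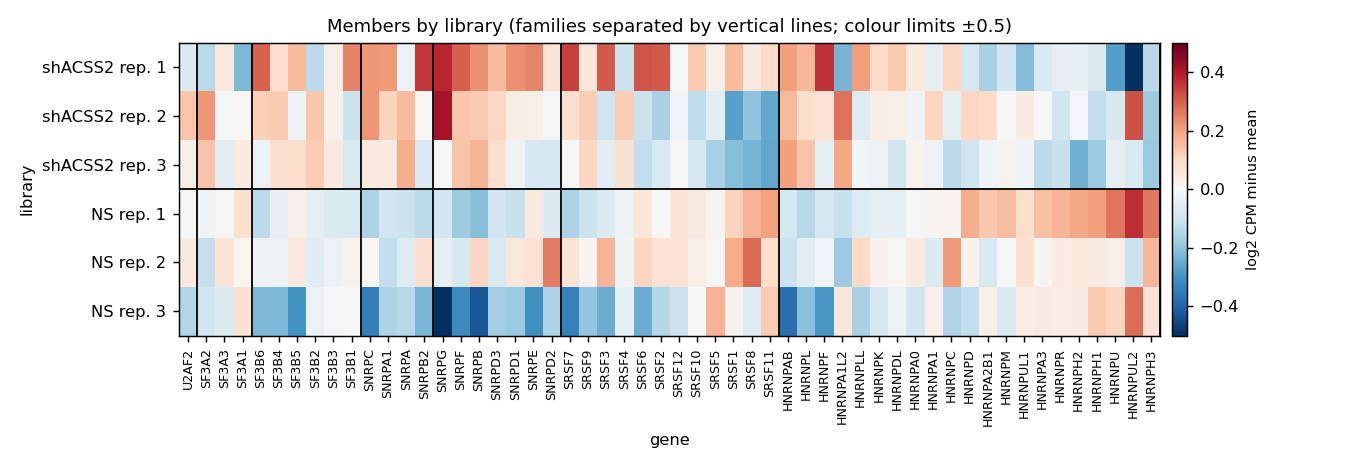
Log2 CPM of 54 members in each library minus the member's mean over the 6 libraries, with shACSS2 libraries above and NS libraries below. U2AF1, whose range is far wider, is not drawn. The Sm core and particle columns are mostly red in shACSS2 and pale or blue in NS, shACSS2 replicate 1 is red over most SRSF columns, and the right end of the HNRNP block is blue in shACSS2.

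None of the 12 SRSF genes passed the test, and they split evenly around 0, with 6 above and 6 below. Their median log2 fold change was 0.02, and -0.05 with library totals. SRSF3, the most abundant one and a small SR protein that also acts in mRNA export, had 691, 521 and 538 CPM in the shACSS2 libraries. In the NS libraries it had 531, 628 and 471 CPM. The spread within each group exceeded the distance between them, and the log2 fold change was 0.10 (SE 0.123, edgeR adjusted p = 0.606). The highest was SRSF7, at 0.28 (SE 0.116, edgeR adjusted p = 0.108). The lowest were SRSF11, at -0.27 (SE 0.106, adjusted p = 0.0874), SRSF8, at -0.26 (SE 0.116, adjusted p = 0.129), and SRSF1, at -0.20 (SE 0.114, adjusted p = 0.230). SRSF9 was the only SRSF gene whose groups did not overlap, with 189.6, 198 and 195 CPM in shACSS2, against 169, 183 and 159 CPM in NS, at 0.19 (adjusted p = 0.164). SRSF2, SRSF4, SRSF5, SRSF6, SRSF10 and SRSF12 lay between -0.13 and 0.06.

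Among the families with more than 3 genes, the SRSF genes were where shACSS2 replicate 1 departed most. Its log2 CPM lay above the mean of the other 2 shACSS2 libraries for 9 of 12 SRSF genes, by a median of 0.28, while the median was 0.08 over all members and 0.00 over all genes. SRSF6 was 0.43 and SRSF2 0.42 higher there, and SRSF4 was 0.21 lower. All 7 Sm core genes were above as well, by a median of 0.16. Without that library the median log2 fold change of the SRSF genes was -0.10, and SRSF1, SRSF8 and SRSF11 were called lower. In that fit 13 members (23.6%) were called, against 23.5% of the genes tested. The annotation of another gene, AC015813.2, holds 50.8% of the 50-base sequences of SRSF1, and how reads matching both were counted is not stated.

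The 25 HNRNP genes held most of the members' counts, 1.19 ± 0.0284% of all counts in shACSS2 and 1.29 ± 0.0469% in NS (SD, n = 3 each). Of 21 tested, 1 rose and 1 fell, 9 lay above 0 and 12 below, and the median log2 fold change was -0.06, which came to 0.00 without NS replicate 1, -0.02 without shACSS2 replicate 1 or 3, -0.11 without NS replicate 3 and -0.13 with library totals (16 of 21 below 0). HNRNPA1, the most abundant member, had 2551, 2837 and 2582 CPM in the shACSS2 libraries, against 2662, 2516 and 2680 CPM in the NS libraries. These ranges overlapped, and the log2 fold change was 0.02 (SE 0.088, edgeR adjusted p = 0.902). HNRNPK at 0.07, HNRNPA2B1 at -0.06 and HNRNPC at -0.06, the next most abundant with HNRNPU, were also within their errors of 0.

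The hnRNP H/F group, whose proteins bind G-rich RNA, lay on both sides of 0. HNRNPH3 fell. HNRNPH1, the most abundant of them, had 409, 395 and 378 CPM in shACSS2, against 496, 443 and 470.1 CPM in NS, and its log2 fold change was -0.25 (SE 0.090, edgeR adjusted p = 0.0629). HNRNPH2 was at -0.19 (adjusted p = 0.202), without overlap of the groups, and HNRNPF was on the other side of 0 at 0.26 (SE 0.113, adjusted p = 0.118). HNRNPU, a nuclear scaffold protein, had 982, 1123 and 1148 CPM in shACSS2, against 1432, 1213 and 1280.3 CPM in NS. Its groups did not overlap, and it missed the test at -0.27 (SE 0.098, edgeR adjusted p = 0.0678), with -0.02 after the length and GC correction. HNRNPR at -0.17 and HNRNPA3 at -0.14 were the other HNRNP genes whose shACSS2 libraries were all below NS. Of the 21 HNRNP genes tested, 8 (38.1%) did not overlap, 6 of them lower and 2 higher, against 36.3% of all genes tested. HNRNPL, which binds CA repeats, had 420.1, 397 and 413 CPM in shACSS2, against 339.7, 361 and 324 CPM in NS. It was at 0.26 (SE 0.089, edgeR adjusted p = 0.0524) and was past the threshold in 8 of the 18 alternatives, but its relative HNRNPLL was at 0.09.

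HNRNPUL2 varied widely within both groups, with 17.2, 37.1 and 28.3 CPM in shACSS2, against 38.5, 27.7 and 36.2 CPM in NS. Its log2 fold change, -0.31 with SE 0.223, missed the threshold (edgeR adjusted p = 0.373). HNRNPUL1 was at -0.13, HNRNPM at -0.06, HNRNPD at -0.06, HNRNPDL at 0.05 and HNRNPA0 at 0.04, and none of these passed the test. HNRNPUL2 shares 43.2% of its 50-base sequences with an annotated readthrough to BSCL2. HNRNPA1L2, a retrocopy of HNRNPA1, shares 58.5% of its sequences with other genes, and its 3.92 to 5.56 CPM cannot be told apart from misplaced HNRNPA1 reads. HNRNPCL1, HNRNPCL2, HNRNPCL3 and HNRNPCL4, copies of HNRNPC, had no count in any library. Between 53.9% (HNRNPCL2) and 94.0% (HNRNPCL4) of their 50-base sequences occur in other genes, so their reads may have been lost in counting. With 108405728 counts in the 6 libraries together, no count still allows a level of up to 0.0277 CPM (3 counts). That limit is for counting error only and does not cover reads lost to shared sequence.

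Shared sequence was limited for the members past the test. The share of 50-base exon sequences found in other genes was 0% for HNRNPH3, 1.25% for HNRNPAB, 2.14% for SNRPF, 5.85% for SNRPC and 6.83% for SNRPG. Over the 60 members 43 were under 10%, and HNRNPA1 (22.8%) and HNRNPA3 (16.5%) were among those above. Rows of processed pseudogenes held at most 3.01% of the parent's count in any library, and that was SNRPE. Whether reads were counted by strand is not stated, so antisense reads cannot be told apart from those of the members.

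Levels can be compared between genes per length of merged exons. HNRNPA1 was highest at 518 CPM per kilobase over the 6 libraries, and SNRPB followed at 486. SNRPD2 at 221, HNRNPK at 207, HNRNPC at 191, SNRPC at 167.4 and HNRNPAB at 167.2 CPM per kilobase came next. Between neighbours in that order the ranges of the 6 libraries overlapped, except between SNRPB and SNRPD2. The Sm ring proteins are thought to be used in equal numbers, yet the 7 detected Sm genes ranged from 33.7 CPM per kilobase for SNRPF to 486 for SNRPB. Merged exon length counts every annotated exon, so a gene with a long rare exon reads low on this scale. Apart from U2AF1 at 0.831, the lowest with counts were HNRNPA1L2 at 3.39, SRSF12 at 4.67, HNRNPUL2 at 5.69 and HNRNPLL at 11.6 CPM per kilobase.

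**Figure D4:**
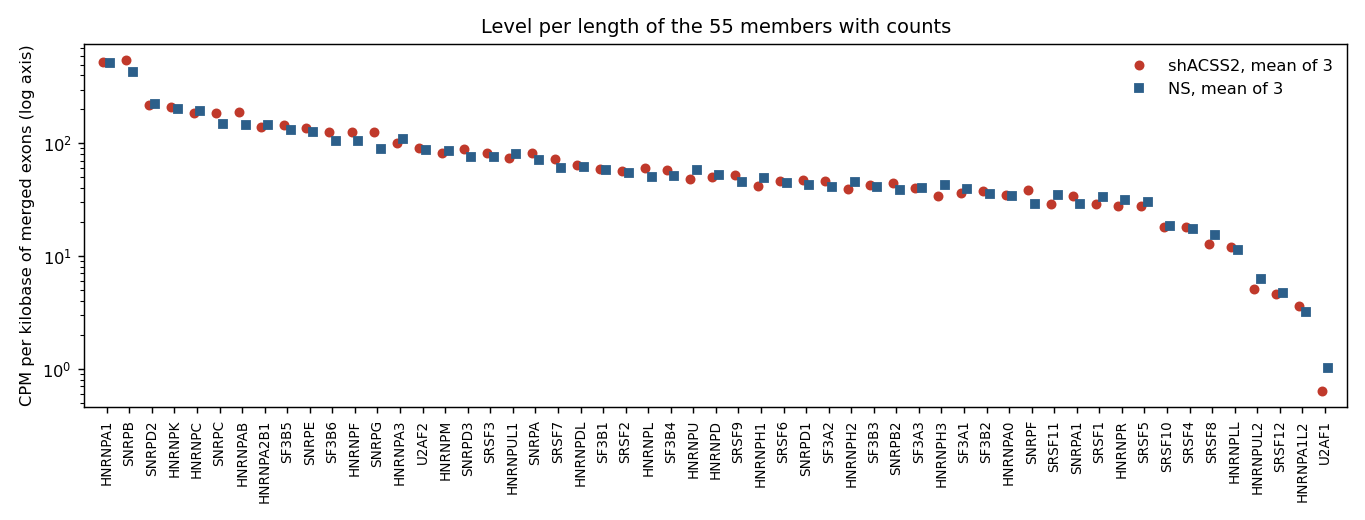
Mean TMM-normalised CPM per kilobase of merged exons on a log axis for the 55 members with counts, from the highest at the left, with shACSS2 as circles and NS as squares. HNRNPA1 and SNRPB are far above the rest, and the circle and square of nearly every gene almost touch.

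Shorter members tended to have higher fold changes. Across the 55 members the log2 fold change had a Spearman's rho of -0.57 with exon length, against -0.21 over all genes tested. Points share libraries, and this is a description without a test. The shortest 19 members (693 to 3340 bases, most of the snRNP genes among them) had a median of 0.19, the middle 18 (3669 to 6033 bases) of 0.04 and the longest 18 (6329 to 22512 bases) of -0.06. All genes tested in these length ranges had medians of 0.10, 0.03 and -0.08. With offsets that remove the trend with length and GC content, 14 members (25.5%) and 27.1% of all genes were called. SNRPG then lost its call (0.43, edgeR adjusted p = 0.113), and SRSF1, SRSF8 and SRSF11 were called lower.

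**Figure D5:**
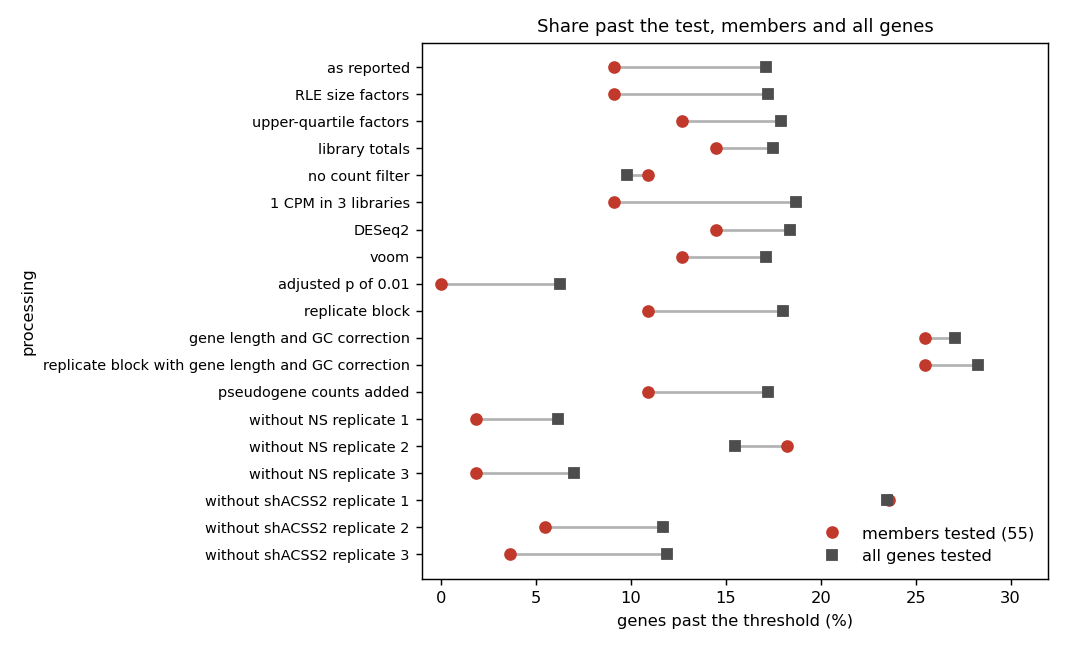
Percentage of the 55 members (circles) and of all genes tested (squares) past the threshold as reported and under each of the 18 alternatives. The members lie below all genes in 15 of the 18 alternatives, and both shares vary widely when a library is left out.

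Earlier work on the same fold changes had picked out genes with ATGCTCA or TGCTCAA in the 3′ UTR. The pair was chosen from these data and gives no independent evidence here. Of the 55 members tested, 9 held either sequence in their longest annotated 3′ UTR (16.4%), against 18.0% of 13263 genes. None of the 9 was called. Of the 2381 holders among the 13263 genes, 24.2% were called lower in shACSS2. The share over all 16210 genes tested, which include holders and genes with no 3′ UTR in this count, was 9.64%. With 9 holders, and 1 of the 55 members called lower, the members cannot show whether they differ from this. The median log2 fold change was -0.06 in the 9 and 0.07 in the other members, against -0.16 and 0.05 for all genes with and without the sequence. Holders also had longer 3′ UTRs, with a median of 2619 bases against 888.5 in the other members. Over all genes these medians were 3112 and 1159.5 bases, and the part of length in the contrast was not tested. The sites of 3 holders are printed with 30 bases on the transcript's strand, capitals marking the match, from chr11:95071092-95071121 (plus, SRSF8), chr14:21211101-21211130 (minus, HNRNPC) and chr1:203870397-203870426 (plus, SNRPE) of GRCh38. They are a holder with one of the lowest fold changes, the most abundant holder and the one with the highest fold change.
SRSF8: actgattatttTGCTCAAtactatgtcttt
HNRNPC: atcttcagcacATGCTCActgttctcccca
SNRPE: ggggtcagtatTGCTCAAcactctcattga
SRSF8 had a log2 fold change of -0.26, HNRNPC was at -0.06 and SNRPE at 0.12. Other holders included HNRNPD and HNRNPDL with ATGCTCA, and HNRNPR, SRSF6 and SRSF12 with TGCTCAA.

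Other genes of the splicing pathway included both rises and falls. Of 152 genes tested in 10 lists of the pathway, 14 rose and 17 fell (20.4%), against 9.09% of the members and 17.1% of all genes, and these shares were not tested against each other. Dropping shACSS2 replicate 1, 2 or 3 gave 47, 18 and 19 calls among them in that order. In the same fits 23.5%, 11.7% and 11.9% of all genes tested were called. Dropping NS replicate 1, 2 or 3 gave 8, 32 and 10 calls, against 6.15%, 15.5% and 6.98% of all genes. The 7 LSM proteins of the U6 ring, the Sm-like counterpart, all lay above 0 with a median of 0.21 (5 of 7 above 0 with library totals), and 2 of them rose. Without NS replicate 3 their median was 0.08, with 6 of 7 above 0 and 1 called, and without shACSS2 replicate 1 it was 0.12, with 6 of 7 above 0. The 14 tested genes that assemble snRNPs, among them the SMN complex and the PRMT5 methylosome, had 4 rises, no fall and a median of 0.18, which ran from 0.04 without shACSS2 replicate 1 to 0.23 without shACSS2 replicate 2. Of 15 tri-snRNP genes 2 rose. Of 15 other U1 and U2 genes 1 rose and 3 fell, of 9 minor spliceosome genes 1 rose and 1 fell, and of 25 genes of the later steps 2 rose and 3 fell. The SR-related list went the other way, with 4 of 13 lower, none higher and 12 of 13 below 0 (10 of 13 after the length and GC correction). Of 9 kinases of SR proteins 1 rose and 2 fell, of 35 other splicing regulators 1 rose and 4 fell, and of 10 genes of nonsense-mediated decay none was called.

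The naming rule covered 29 of these genes, and 7 of them were past the threshold in all 18 alternatives. SON, a large scaffold protein of nuclear speckles, averaged 261 ± 9.45 CPM in shACSS2 and 391 ± 17.8 CPM in NS (SD, n = 3 each). It fell without overlap of the groups, at -0.58 (SE 0.089, edgeR adjusted p = 0.000611). SRRM2, the other speckle scaffold, had 406, 518 and 527 CPM in shACSS2, against 853, 655 and 754 CPM in NS, and fell by 0.64 on the log2 scale (edgeR adjusted p = 0.00237). MBNL3, a muscleblind splicing regulator, fell by 0.78 (edgeR adjusted p = 0.000269), and ELAVL2, a neuronal Hu protein, fell by 0.68 (edgeR adjusted p = 0.00206). SNRNP48, a protein of the minor U11 particle, fell by 0.67 (edgeR adjusted p = 0.00102), and DHX38, the helicase of the second step, fell by 0.60 (edgeR adjusted p = 0.00801). LSM3 of the U6 ring was the one that rose, by 0.49 (edgeR adjusted p = 0.00390), with 136, 135 and 126 CPM in shACSS2, against 91.9, 104 and 86.6 CPM in NS. The other 22 were called in 9 to 17 of the 18 alternatives.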

How the data were processed

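RNA of 3 shACSS2 and 3 NS libraries was sequenced. The authors deposited raw whole-number counts of reads per gene. The submitters' processing notes name build hg19, the aligner HISAT2 2.0.5, the counter featureCounts 1.5.0-p3, the trimmer fastp and also DESeq2 4.3.1. The gene identifiers match GENCODE v29, a GRCh38 annotation, and printed gene positions and lengths come from it. Promoters are from RefSeq (GRCh38.p14). How reads with several matches were handled is not stated, and they can be lost or misplaced.

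The counts were tested with edgeR 4.0.16 in R 4.3.3 (default expression filter, TMM factors, robust quasi-likelihood fit, group as the only term), with Benjamini-Hochberg adjustment over 16210 genes at 0.05. All adjusted p-values in the text come from that fit or its alternatives. CPM are TMM-normalised, and a standard error is the size of the log2 change divided by the root of F. Scripts were tested on simulated counts. No pair of libraries of the same group agreed within sampling noise (chi-square per degree of freedom at least 4.28). The value was 17.3 and 16.8 for shACSS2 replicate 1 against replicates 2 and 3. For NS replicate 2 against 3 it was 15.8, and it was lower for the other pairs. Each library was counted as 1 replicate, but this excess cannot show whether libraries came from separate cultures.

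The members and the pathway lists were chosen with earlier results of these data known. Every member is accounted for. Library values are given for members past the threshold and for the most abundant of each family. Other members with library values (SNRPA, SF3B3, SRSF9, HNRNPH1, HNRNPU, HNRNPL, HNRNPUL2 and U2AF1) were chosen after their values were seen. From each pathway list the rule takes up to 4 called genes, those with the largest fold changes among genes averaging 1 CPM or more. Of these the 7 called in all alternatives are described. The 18 alternatives were RLE factors, upper-quartile factors and library totals as scalings, a filter of 1 CPM in 3 libraries or none, DESeq2 1.42.0, voom (limma 3.58.1), an adjusted p of 0.01, a replicate block, a gene length and GC correction (mgcv 1.9.3), both together, pseudogene counts added to parents, and each library left out in turn. Sequence matching used Python 3.11.15. Some items are not reported here.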

Additional observations from a re-analysis of the deposited data

How the results depend on the processing

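The direction of the 5 calls held in all 18 alternatives, and 10 or 11 of the 11 snRNP genes were above 0 in each. The median log2 fold change of the members ran from -0.01 with library totals, which moved the median of all genes to -0.07, to 0.08. No member was called at an adjusted p of 0.01, where 330 genes were higher and 680 lower (6.23% of all genes tested). There 1 LSM, 1 minor spliceosome, 2 later-step, 3 other regulator, 1 SR kinase, 2 SR-related and 0 assembly, tri-snRNP or other U1 and U2 genes were called. With the length and GC correction 25.5% of the members and 27.1% of all genes tested were called, and 2335 genes were higher. Of the members 9 were higher and 5 lower (HNRNP 2 and 2, SF3B 2 and 0, SRSF 0 and 3, U1 and U2 particle 3 and 0). In that fit 8 later-step, 11 other regulator, 7 other U1 and U2 and 6 tri-snRNP genes were called. With library totals 14.5% of the members and 17.5% of all genes tested were called in either direction, and 734 genes were higher. Of the members 5 were lower (HNRNP 3, SRSF 2), and no U1 and U2 particle gene was higher (0). Among the lists 2 decay, 3 later-step, 8 other regulator, 1 assembly and 4 tri-snRNP genes were called. DESeq2 called 2 HNRNP genes higher and 2 lower, and no other member lower, and 1 decay gene. Its shares were 14.5% of the members and 18.4% of all genes tested. Voom (17.1% of all genes called) and the filter of 1 CPM in 3 libraries (18.7%) also called 1 decay gene. HNRNP genes called higher were 2 with voom, upper-quartile factors or pseudogene counts added. In these fits 17.1%, 17.9% and 17.2% of all genes tested were called, in that order. The causes were not tested.

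The fit with a replicate block called 6 members (10.9%) and 2923 genes (18% of all tested), with 5 of the 5 members kept. Deviations of same-numbered libraries correlated at -0.06, -0.09 and 0.15. The replicate 3 libraries correlated best with each other, but not every library did so with its own number. The highest value, 0.20, was that of shACSS2 replicate 1 with NS replicate 2. With 3 libraries per group these values cannot settle whether the numbers pair the samples. The block with the length and GC correction called 25.5% of the members and 28.3% of all genes tested, with 2496 genes higher. Of the members 9 were higher and 5 lower (HNRNP 2 and 2, SF3B 2 and 0, SRSF 1 and 3). Of the lists 1 decay, 8 later-step, 12 other regulator, 8 other U1 and U2 and 6 tri-snRNP genes were called.

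Leaving out each library gave 310 to 1837 genes higher and 708 to 2094 lower, with 0 to 8 members higher and 0 to 5 lower. By family these were HNRNP 0 to 2 higher and 0 to 3 lower, SF3A 0 to 1, SRSF 0 to 1 higher and 0 to 3 lower, Sm core 0 to 3 and U1 and U2 particle 0 to 3. The lists had 1 to 2 LSM, 0 to 1 decay, 1 to 7 later-step, 0 to 5 SR kinase, 2 to 4 SR-related, 1 to 2 minor spliceosome, 3 to 11 other regulator, 0 to 7 other U1 and U2, 0 to 4 assembly and 0 to 5 tri-snRNP genes. The lists held 7 to 35 tested genes each. With all libraries 2776 genes were called, 17.1% of those tested. Dropping NS replicate 1 gave 1018 (6.15%), and dropping NS replicate 3 gave 1151 (6.98%). Dropping shACSS2 replicate 1 gave 3931 (23.5%). The 152 tested genes of the 10 lists had 8, 10 and 47 calls in that order, against 31 with all libraries. In these fits the list calls thus moved in the same direction as the calls over all genes.

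Members near 0 changed sign. HNRNPA1 was at -0.0035 with the length and GC correction, -0.0081 with that and the block, -0.053 with library totals, and between -0.026 (without shACSS2 replicate 2) and 0.051 (without shACSS2 replicate 1) when a library was left out. With library totals SF3B1 was at -0.021, SF3B3 at -0.0036 and U2AF2 at -0.0045. With a library left out, SF3B1 ran from -0.067 (without shACSS2 replicate 1) to 0.119 (without shACSS2 replicate 2), and SRSF3 from -0.034 (without shACSS2 replicate 1) to 0.216 (without NS replicate 2). As reported, with all libraries and the default settings, the smallest change called among the members was 0.32.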
